A study of Caenorhabditis elegans with 2 samples.

Results

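The regions described here are the autosomal ISW-1 peaks of Caenorhabditis elegans whose summit lay at the promoter of 1 protein-coding gene and no other. Occupancy was read by ChIP-seq from entire L1 larvae aged 6 hours, synchronised by bleaching and starved, and the labels give 2 biological replicates of this single condition. All animals were of strain OP181, in which the integrated array wgIs181 carries isw-1 with a TY1, EGFP and 3xFLAG tag together with unc-119(+), in an unc-119(ed3) background. The GFP part of the tag was precipitated with an anti-GFP antibody from sonicated chromatin. Every animal thus carried the tagged copy beside its own isw-1, all tissues of the larva were pooled, 1 integrated line was used, and no untagged animals were analysed here. The authors' conservative list of reproducible peaks on ce11 held 2143 peaks, of which 1848 were autosomal. A peak was kept when exactly 1 protein-coding gene had its outermost annotated start, read in the gene's direction, no more than 1000 bp after or 500 bp before the summit, which gave 709 peaks (38.4% of the autosomal peaks, 95% Wilson interval 36.2 to 40.6%). The others were 524 peaks at 2 promoters, 40 at more than 2, 260 in introns, 295 in intergenic sequence beyond any promoter window and 20 in exons.

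ISW-1 is the worm's ISWI ATPase, the motor of chromatin remodelling complexes that slide and space nucleosomes. Genes in C. elegans are short and closely packed, so that a promoter is often shared by a divergent pair or lies just behind the end of a gene on the same strand. Many transcripts are trans-spliced to a spliced leader, which replaces the original beginning of the transcript. The annotated start of such a gene can lie downstream of where transcription begins. Some neighbouring genes on the same strand are transcribed together as operons. A peak at only 1 promoter can be assigned to a single protein-coding gene, which a peak between divergent genes cannot.

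Sequences around the summits are shown for the peak of highest signal and for members that carry short sequences described further on. Each runs from 50 bases before to 50 bases after the summit, written 5′ to 3′ on the strand of the gene, from the RefSeq genome of build WBcel235 (the same as ce11). Capitals mark TGCGTCTC, the GA repeat GAGAGAGA, the E2F-like GCGCGAAA, and the words AAACGCGC, GCAAACAC, AAGTGCGC and GCGCTCCA, on either strand. The window at rpl-3 is chrIII:3867525-3867625 on the plus strand and holds none of them. That of ntl-11 is chrIV:15471569-15471669 on the minus strand and holds TGCGTCTC and, in both orientations, AAGTGCGC. The window at hsp-1, chrIV:17278515-17278615 on the plus strand, holds the GA repeat as TCTCTCTC. The fbxl-2 window, chrIII:4757130-4757230 on the plus strand, holds GCGCGAAA. The windows at C47E8.4 (chrV:14685730-14685830), mrpl-28 (chrII:156079-156179) and pcn-1 (chrIV:4049668-4049768), all on the minus strand, and at eelo-2 (chrIV:17249849-17249949, plus strand) were shown for AAACGCGC, GCAAACAC, AAGTGCGC and GCGCTCCA in that order.
rpl-3: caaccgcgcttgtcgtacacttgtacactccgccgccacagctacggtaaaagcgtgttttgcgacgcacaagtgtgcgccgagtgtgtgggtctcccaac
ntl-11: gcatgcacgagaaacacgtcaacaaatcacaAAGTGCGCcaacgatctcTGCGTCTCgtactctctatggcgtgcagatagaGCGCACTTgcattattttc
hsp-1: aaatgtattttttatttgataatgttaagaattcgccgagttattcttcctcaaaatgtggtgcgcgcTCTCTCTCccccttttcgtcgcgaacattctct
fbxl-2: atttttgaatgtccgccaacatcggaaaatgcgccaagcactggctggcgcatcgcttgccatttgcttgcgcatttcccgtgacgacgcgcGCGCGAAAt
C47E8.4: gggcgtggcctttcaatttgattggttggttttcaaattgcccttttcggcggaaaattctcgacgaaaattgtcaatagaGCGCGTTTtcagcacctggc
mrpl-28: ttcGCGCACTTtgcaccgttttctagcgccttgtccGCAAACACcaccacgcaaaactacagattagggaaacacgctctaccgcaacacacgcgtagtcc
pcn-1: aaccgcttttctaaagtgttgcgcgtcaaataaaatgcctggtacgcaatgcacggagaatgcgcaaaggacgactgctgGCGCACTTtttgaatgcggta
eelo-2: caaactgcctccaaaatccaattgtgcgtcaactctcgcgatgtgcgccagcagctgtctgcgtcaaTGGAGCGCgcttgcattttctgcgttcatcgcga

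The highest single-promoter peaks stood at rpl-3, rpl-35, cdc-48.1, mog-4, C47E8.4 and ints-4. Signal here means the authors' own enrichment value, deposited for every peak. It ranks peaks within a list, and the 3 lists used here have different scales. At rpl-3, which encodes a protein of the large ribosomal subunit, the signal was 1404 in replicate 1, 979.1 in replicate 2 and 2378 in the conservative list. At rpl-35, another gene of that subunit, the values were 1254, 732.5 and 1977 in the same order. The cdc-48.1 peak, at a gene for the AAA ATPase that extracts ubiquitinated proteins, had 1192, 685.2 and 1868. These 3 peaks ranked 2, 4 and 5 among all autosomal peaks of the conservative list. The splicing helicase gene mog-4 followed with 1137 in replicate 1, 641.1 in replicate 2 and 1776 in the conservative list. C47E8.4 had 1010, 602.3 and 1590, and the Integrator subunit gene ints-4 had 886.7, 520.0 and 1412. All 25 members of highest signal overlapped a peak of both replicates' own thresholded lists, and 23 members had a conservative signal above 1000.

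Other members above that level included genes of mitochondria, chromatin and the replication fork. The mitochondrial ones were cox-5A, a subunit of cytochrome c oxidase (signal 1206 in the conservative list), sco-1, a copper chaperone for that enzyme (1094), and dld-1, the dihydrolipoamide dehydrogenase of the citric acid cycle (1135). The chromatin genes were the histone acetyltransferase genes hat-1 (1055) and cbp-1 (1029), of which cbp-1 encodes the CBP/p300 homologue. Replication was represented by rpa-2, a subunit of the single-strand binding protein RPA (1002), with pcn-1, the sliding clamp PCNA, just below at 984.4. The constitutive Hsp70 gene hsp-1 had a signal of 821.2 in replicate 1, 384.7 in replicate 2 and 1225 in the conservative list.

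Over the 709 members the conservative signal had a median of 205.2 (quartiles 134.9 and 341.8, range 41.3 to 2378). Most members were seen in each replicate on its own. Of the 709, 522 overlapped a peak of both replicates' own thresholded lists by at least 1 bp (73.6%, 95% Wilson interval 70.3 to 76.7%), 97 overlapped one in replicate 1 alone, 33 in replicate 2 alone and 57 in neither. By quartile of signal, weakest first, the share in both was 19.1%, 77.4%, 98.3% and 100%. Across the 522 shared members the signals of the replicates had a Spearman rho of 0.882 and a Pearson r of 0.924 on the log2 scale, as a description over peaks of 2 libraries. Replicate 1 was the higher by a median of 1.70-fold (quartiles 1.47 and 1.98), with 43 of its 50 highest members among the 50 highest of replicate 2. The lists are scaled separately, so that ratio does not measure binding.

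**Figure D1:**
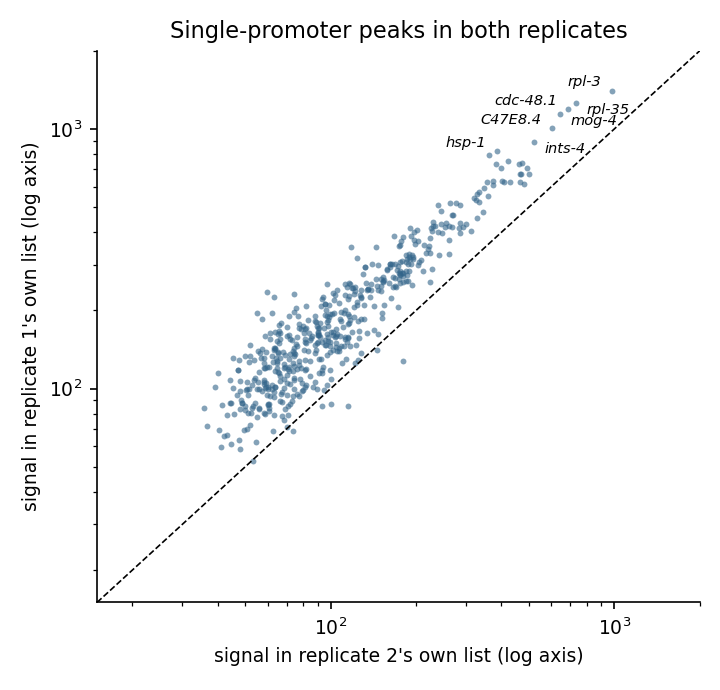
Signal of the 522 single-promoter peaks that overlapped a peak in both replicates' own lists, with replicate 2 on the horizontal and replicate 1 on the vertical axis, both log axes, 1 point per peak and the dashed line marking equality. The points follow a band above the line (median ratio 1.70, Spearman rho 0.882), and the 7 members of highest signal are named.

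The members that neither replicate passed were weak, yet nearly all were present in the replicates' full ranked lists. Of the 57, 56 overlapped a ranked peak of replicate 1 and 56 one of replicate 2. The strongest of them were epg-6, an autophagy gene (146.9 in the conservative list, 102.9 and 45.4 in the ranked lists of replicates 1 and 2), and aakg-5, a regulatory subunit of AMP-activated kinase (131.6, with 92.5 and 43.4). The promoter of isw-1 itself belonged to this set. Its peak lay 132 bp upstream of the start, with a signal of 127.9 in the conservative list, 81.0 in replicate 1's ranked list and 64.8 in replicate 2's. The array carries tagged isw-1 as well. Whether it includes this promoter sequence, and any part of the array in the value, was not tested.

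Set beside the other autosomal classes, single-promoter peaks had a signal between that of peaks at 2 promoters and that of peaks outside promoters. In the conservative list the median was 205.2 at 1 promoter (95% interval of the median 190.2 to 222.4), 248.8 at 2 promoters (223.9 to 266.9), 151.6 in introns and 162.5 in distal intergenic sequence. Replicate 1's own list gave 136.9 at 1 promoter, against 156.6, 99.5 and 104.6. Replicate 2's gave 88.8, against 99.4, 68.7 and 68.9. The order was thus the same in the 3 lists for these classes. The share of peaks found by both replicates ran the same way, at 73.6% for 1 promoter, 81.1% for 2 promoters (77.5 to 84.2%), 60% for introns and 64.1% for distal sequence. Among the members that share rose steeply with signal, so its order is not independent of the order of the medians. With 2 replicates of 1 condition the differences between classes were not tested, and the intervals cover only the number of peaks.

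**Figure D2:**
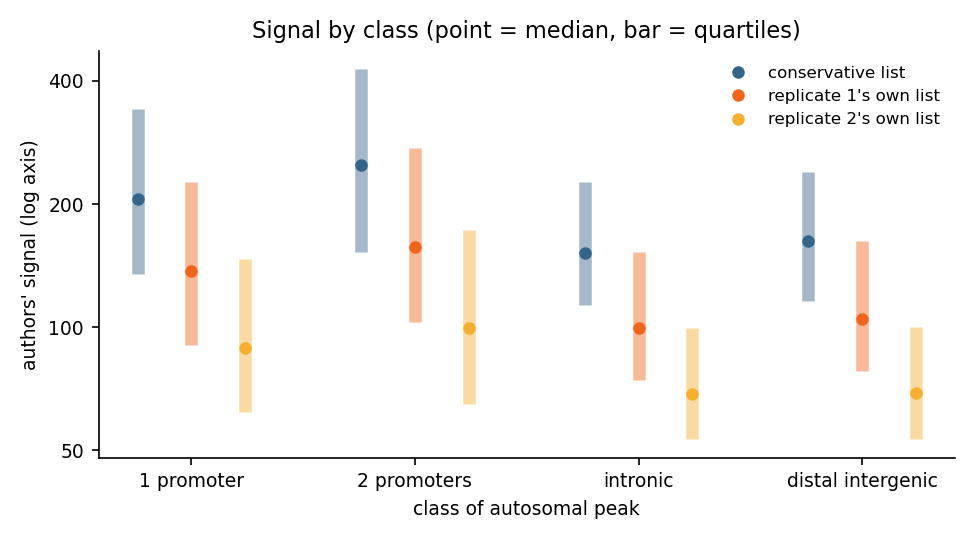
Authors' signal (log axis) for autosomal peaks at 1 promoter, at 2 promoters, in introns and in distal intergenic sequence, in the conservative list and in each replicate's own list, with points for medians and bars from the lower to the upper quartile. In each list peaks at 1 promoter have a median below that of peaks at 2 promoters and above that of both classes outside promoters, while the quartile ranges overlap.

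Single-promoter summits clustered on the upstream side of the annotated start. The median position was 222 bp upstream (quartiles 386 and 124 bp upstream), and 661 of the 709 summits (93.2%, 95% Wilson interval 91.1 to 94.9%) lay upstream. The window allowed positions from 1000 bp upstream to 500 bp downstream, so it bounds these values but does not set the place of the maximum. Within 250 bp upstream there were 349 summits (49.2%). Applying the rule to each replicate's own list gave medians of 235.5 bp in replicate 1 and 229 bp in replicate 2. The first coding base was a median of 273 bp from the summit. Most summits, 610 (86.04%), lay between protein-coding genes, 21 lay in the gene's own 5′ untranslated region, 23 in its own intron and only 3 in its own coding exons.

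**Figure D3:**
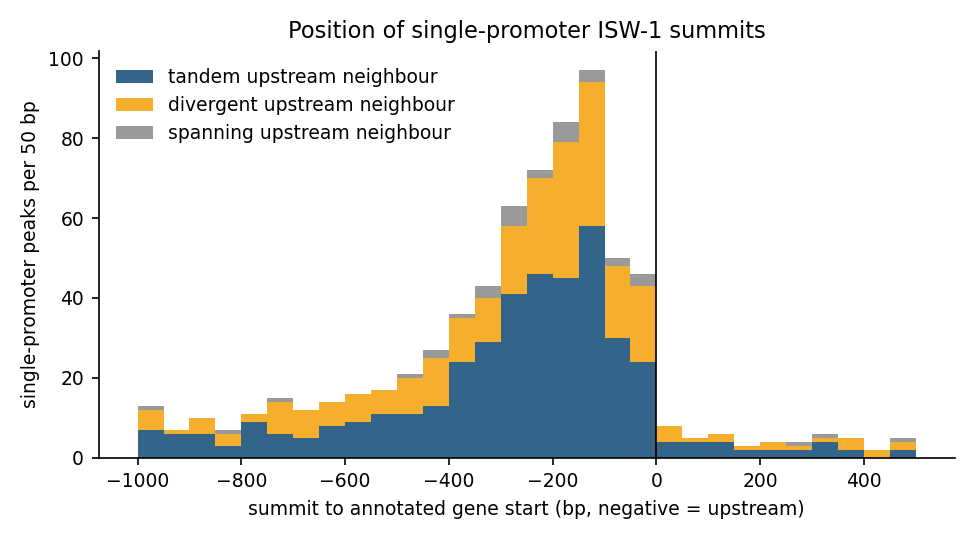
Number of single-promoter peaks per 50 bp of distance from the summit to the annotated gene start, with negative values upstream and colours for the orientation of the upstream neighbour (tandem, divergent or spanning). Counts are highest in the 300.0 bp before the start and low after it, for tandem and divergent neighbours alike.

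Signal hardly followed distance. Members 250 to 500 bp upstream had the highest median of the distance groups with over 20 peaks, 246.2 over 190 peaks (95% interval of the median 207.3 to 264.9), and the 122 members farther than 500 bp had 180.4 (155.5 to 222.3). The 253 members 100 to 250 bp upstream had 214.2 and the 96 within 100 bp upstream had 205.0. Over all 709 members the Spearman rho of signal with absolute distance was 0.0022, and the ranked lists gave 0.0086 in replicate 1 and 0.019 in replicate 2. Strong peaks therefore stood both near the start and far from it. fbxl-2, an F-box gene, had 869.1 at 80 bp upstream, and the cytochrome oxidase gene cox-5B had 724.7 at 31 bp. At the other end, cbp-1 had 1029 at 891 bp and rpa-2 had 1002 at 666 bp.

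The 48 members at or downstream of the start included a few strong peaks. That of ints-4 lay 28 bp downstream. rbm-39, which encodes an RNA-binding splicing factor, had its summit 5 bp downstream with a signal of 402.7 in replicate 1, 311.1 in replicate 2 and 706.7 in the conservative list. Farther in, Y56A3A.7 had 575.5 at 458 bp, the cuticle collagen gene col-72 had 386.5 at 469 bp, and the hnRNP genes hrpk-1 and hrpu-1 had 369.3 at 198 bp and 342.6 at 133 bp. The 35 members from 100 bp downstream onward had a median of 165.1. At the edges of the window, the last members inside were ppm-2 (997 bp upstream, 382.4) and har-1 (991 bp, 306.0), and nac-3 (475 bp downstream, 210.0) and col-72. The next peaks outside it were at ech-2 (1011 bp upstream, 247.0) and mrps-28 (1015 bp, 168.7), and at C09H10.5 (520 bp downstream, 128.4) and cpz-1 (527 bp, 146.3).

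The upstream neighbour of a single-promoter gene was most often on the same strand. The 709 peaks belonged to 697 genes. Of these, 412 (59.1%, 95% Wilson interval 55.4 to 62.7%) had a tandem upstream neighbour, 252 (36.2%) a divergent one and 33 (4.73%) a start that lay within another gene. Among the 1030 genes of peaks at 2 promoters the shares were 3.40% tandem and 92.4% divergent, and among all 17242 autosomal protein-coding genes 50.6% and 42.2%. The rule itself removes a gene whose divergent neighbour starts within 1000 bp of the summit, so these shares are in large part set by the way the peaks were chosen. The share of genes of each arrangement that had a peak was therefore set out both for single-promoter peaks alone and together with peaks at 2 promoters.

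Genes with a distant divergent neighbour had a single-promoter peak somewhat more often than tandem genes. With a divergent neighbour over 1000 bp away, 243 of 4003 genes had such a peak (6.07%, 95% Wilson interval 5.37 to 6.85%), against 412 of 8720 tandem genes (4.72%, 4.30 to 5.19%). In replicate 1's own list the shares were 5.62% and 4.62%, and in replicate 2's 4.97% and 3.85%. Tandem genes whose gap to the neighbour was over 500 and up to 1000 bp stood at 6.04%, those with up to 500 bp at 4.77% and those with more than 1000 bp at 4.05%. Genes whose start lay inside another gene had a single-promoter peak in 2.67% of cases (1.91 to 3.73%). With peaks at 2 promoters counted as well, the share was 6.15% for these genes (4.94 to 7.63%), 8.22% with a divergent neighbour over 1000 bp away (7.41 to 9.11%) and 5.13% for tandem genes (4.68 to 5.61%), so that genes with a start inside another no longer stood below tandem genes. Counted in this way, divergent genes with a gap of up to 1000 bp had 26.4%. Each peak at 2 promoters counts here for both of its genes, which raises the share of close divergent genes most. Of these 3278 genes, 860 were genes of a peak at 2 promoters, against 35 of the 8720 tandem genes. The differences were not tested.

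**Figure D4:**
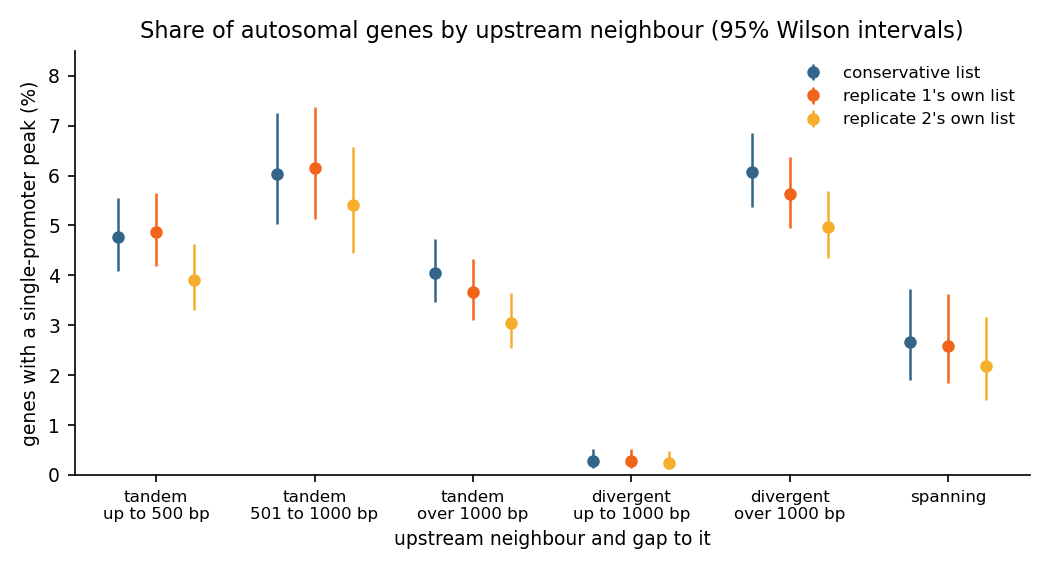
Percent of autosomal protein-coding genes that had a single-promoter peak, by orientation of the upstream neighbour and the gap to it, in the conservative list and in each replicate's own list, with 95% Wilson intervals as bars. The low share for divergent gaps up to 1000 bp (0.275% in the conservative list) follows from the rule, and the other groups range from 2.67% to 6.07% in that list.

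Signal differed little with orientation. The median was 203.2 for tandem, 206.2 for divergent and 245.2 for spanning members, with intervals of the medians that overlap. rpl-3, cdc-48.1 and hsp-1 led the tandem members, and rpl-35 and mog-4 led the divergent ones, with their neighbours 11497 and 12015 bp away. Within the tandem members, those with a gap under 500 bp (155 peaks) had a median of 224.3 (95% interval 197.7 to 263.2) and those with a gap of 500 bp or more but under 1000 bp (109 peaks) 229.8. Tandem gaps from 1000 to under 2000 bp gave 177.3 over 71 peaks. The shortest gaps were those of ccch-3 (16 bp), E01B7.2 (17 bp) and nuo-2, a subunit gene of respiratory complex I (19 bp), with signals of 130.3, 320.7 and 129.2. In such cases the neighbour's body leaves little intergenic sequence. Over all orientations 52 members had their summit inside another protein-coding gene, of which 30 were spanning, 17 tandem and 5 divergent. The strongest of these were C47E8.4, whose start lies within the gene annotated for the chaperone hsp-90, and mtcu-2, whose summit fell in the tandem neighbour let-268.

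Single-promoter genes often had a close downstream neighbour on the same strand. A same-strand gene began within 500 bp of the end of 223 of the 697 genes (31.99%, 95% Wilson interval 28.6 to 35.5%), against 33.9% of genes of peaks at 2 promoters and 19.3% of all autosomal protein-coding genes (18.7 to 19.9%). In the replicates' own lists the share of single-promoter genes was 31.1% and 32.1%. On the upstream side a same-strand gene lay within 500 bp of 156 of the 697 genes (22.4%, 19.4 to 25.6%). The share was 2.91% for genes of peaks at 2 promoters and 18.96% for all genes (18.4 to 19.6%). The rule takes out most genes with a close divergent neighbour, so these upstream shares are in large part set by it. Among tandem genes, 4.77% of those with a gap up to 500 bp had a single-promoter peak, against 4.72% at any gap. The splice acceptor sequence TTTCAG ended within 15 bp before the annotated start, where a trans-spliced message would begin, at 26.4% of single-promoter genes (23.3 to 29.8%), 25.05% of genes of peaks at 2 promoters and 14.7% of all genes. The replicates' own lists gave 27.4% and 26.5%. Single-promoter genes were also longer, with a median of 2780 bp, against 2195 bp for genes at 2 promoters and 1964 bp for all genes. No operon annotation was used, and these differences were not tested.

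A further protein-coding start was excluded by the rule, but non-coding starts were not. At 89 members (12.6%, 95% Wilson interval 10.3 to 15.2%) the start of a non-coding gene lay within 250 bp of the summit. The same share was not computed for all promoters or other classes of peaks, so whether 12.6% is high is unknown. These were 61 genes of the unclassified ncRNA biotype, 13 snoRNA, 6 snRNA, 6 tRNA, 2 pseudogene and 1 lincRNA starts. The peak assigned to egg-5, a regulator of the oocyte-to-embryo transition, had its summit 44 bp upstream of sls-2.4 and 573 bp upstream of egg-5. That assigned to H41C03.3 lay 51 bp upstream of sls-2.1 and 963 bp upstream of H41C03.3. Both sls genes encode SL2 spliced leader RNA, so the nearest start to these strong peaks (1207 and 1187 in the conservative list) was that of a non-coding gene. The summit at snr-4, an Sm protein gene, was 358 bp upstream of snr-4 and 37 bp upstream of the snRNA gene T11F9.15.

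A second summit at the same promoter was rare, with 12 of the 697 genes having 2 member peaks and none more. At 6 of the 12 the summits were 200.0 to 225 bp apart, namely fubl-2, npp-18, Y50D4C.5, Y97E10C.1, zyg-9 and dpsm-1. Wider pairs included both genes of the autophagy proteins LGG-1 and LGG-2. At lgg-1 the summits lay 861 and 142 bp upstream with signals of 263.8 and 181.6, and at lgg-2 they lay 283 bp upstream and 366 bp downstream with 586.1 and 290.4. At eel-1, a HECT-type ubiquitin ligase gene, a peak of 1002 at 370.0 bp upstream was accompanied by one of 112.02 at 839 bp. For Y97E10C.1, fubl-2, Y50D4C.5 and dpsm-1 both member peaks overlapped 1 peak in each replicate's own list, the same for both, and no other. The npp-18 pair overlapped separate peaks in replicate 1's own list but shared 1 in replicate 2's. The zyg-9 pair overlapped no peak in either list.

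Gene groups were unevenly represented among the single-promoter genes. Of the 17242 autosomal protein-coding genes, 4.04% were the gene of a single-promoter peak and 5.97% of a peak at 2 promoters. Ribosomal proteins stood far above this level. Of 48 large subunit genes, 12 (25%) had a single-promoter peak, the same number in each replicate's own list, with rpl-3, rpl-35 and rpl-41.2 (867.8) the highest. Of 33 small subunit genes, 11 (33.3%) had one, with 11 and 8 in replicates 1 and 2 and rps-24 the highest at 1184. Another 27 and 18 genes of these subunits had a peak at 2 promoters. The median signal over the single-promoter genes was 449.9 for the large and 238.5 for the small subunit, against 207.2 over all 697 genes, where chaperones had 472.9, nuclear transport genes 194.2 and translation factors 188.3. More genes had a peak at 2 promoters than at 1 also in the proteasome (6 of 33 single, 14 at 2 promoters) and among translation factors (8 of 47 and 20). The same held for splicing factors (8 of 67 and 20) and chaperones (13 of 93 and 27). These are counts of genes, and each peak at 2 promoters counts for both of its genes.

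Nuclear transport, RNA binding, ubiquitin conjugation and chromatin genes had single-promoter shares of 17.1% to 26.9%. Nuclear pore and transport genes had 14 of 52 at 1 promoter (26.9%; 14 in replicate 1 and 10 in replicate 2) and 14 at 2 promoters, led by the importin gene imb-3 (547.5), the inner nuclear membrane gene lem-2 (489.4) and the nucleoporin gene npp-8 (338.8). Genes of mRNA decay and RNA binding had 15 of 78 (19.2%, 13 in each replicate) against 13 at 2 promoters, with the CCR4-NOT subunit genes ntl-11 (969.5) and ntl-2 (678.6) and the hnRNP gene hrpa-1 (517.8) highest. Ubiquitin conjugation genes had 12 of 70 (17.1%, 13 and 11 in the replicates) against 8, with ufd-3 (416.4) and the E2 enzyme gene ubc-7 (409.2) highest. Chromatin regulators had 22 of 122 (18.03%, 22 and 19 in the replicates) against 26. The highest were cbp-1, lin-9 of the DREAM complex (950.8) and the methyltransferase gene set-4 (517.5), and the list also held the SWI/SNF genes swsn-3, swsn-1 and swsn-7 (428.4, 210.5 and 180.0) and isw-1. How the balance between 1 and 2 promoters differed between lists was not tested.

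Mitochondrial, replication and transport genes lay between these and the background. Oxidative phosphorylation had 7 of 47 genes, led by cox-5A and cox-5B. Mitochondrial import and dynamics had 6 of 36 against 4 at 2 promoters, with the receptor gene tomm-20 (532.5) and the prohibitin gene phb-2 (448.3) highest, and mitochondrial ribosomal proteins had 6 of 71, led by mrpl-28 (683.0). The vacuolar ATPase had 3 of 18 against 2. The list for DNA replication and the cell cycle had 13 of 109, among them rpa-2, pcn-1, mcm-10 (379.5), mcm-4 (197.7) and mcm-2 (152.0). It was built from symbol patterns and also took in cdc-48.1 and cdc-73, which serve protein extraction and transcription. RNA polymerase, Mediator and Integrator had 9 of 77, with ints-4 highest and ama-1, the large subunit of RNA polymerase II, at 267.2. Vesicle trafficking had 11 of 145, with vps-39 highest at 775.5, and the cytoskeleton 11 of 109, with the tubulin gene tba-2 at 664.4. Metabolic enzymes of glycolysis and the citric acid cycle had 5 of 47, but 3 in each replicate's own list, and of the 5 dld-1 alone exceeded 200.0.

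The lists of homeobox and related transcription factors, kinases and GTPases had shares of 6.12% to 8.79%, while several large gene families had shares below the 4.04% of all genes. Among homeobox, bHLH, GATA, forkhead and bZIP factors 9 of 147 had a single-promoter peak (6.12%, with 7 and 6 in the replicates) and 4 a peak at 2 promoters. They included xbp-1, the bZIP factor of the endoplasmic reticulum stress response (364.1), jun-1 of the AP-1 family (312.9), crh-1, the CREB homologue (250.2), and the FOXO gene daf-16 (164.3). Kinases and phosphatases had 8 of 96 (8.33%, 8 and 6 in the replicates) against 6 at 2 promoters, and small GTPases, G proteins and their regulators 8 of 91 (8.79%, 6 in each replicate) against 4. Nuclear hormone receptors had 2 of 247, with nhr-49 at 225.0, cuticle collagens 2 of 145, F-box proteins 2 of 305, ion channels and transmitter receptors 4 of 294, lipid and sterol metabolism 2 of 152 and C-type lectins 1 of 237. Aminoacyl-tRNA synthetases had 1 of 31 (3.23%) at a single promoter, but 6 of 31 (19.4%) at 2 promoters. Chemoreceptors had 2 of 1180 in the conservative list, and none when the rule was applied to either replicate's own list. Neuropeptides (0 of 108) and cytochrome P450s with UDP-glucuronosyltransferases (0 of 130, but 1 in replicate 1's own list) had none in the conservative list. Whole larvae were used, so a gene occupied in few cells and a gene occupied weakly in all cannot be told apart. The 32 lists held 231 of the 697 genes, and 466 of the 12790 genes in none of them (3.64%) had a single-promoter peak.

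**Figure D5:**
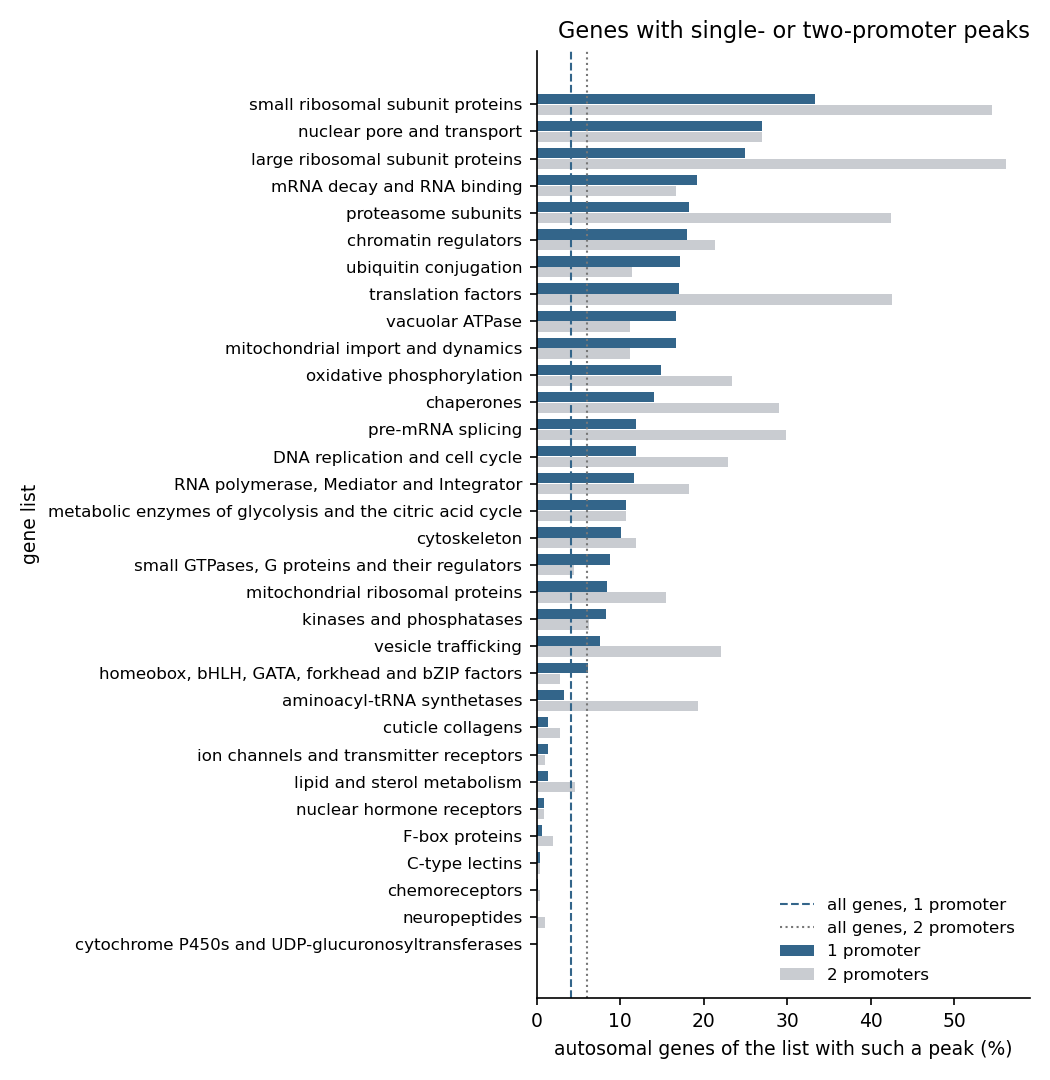
Percent of the autosomal genes of each list that had a single-promoter peak (dark bars, upper) or a peak at 2 promoters (grey bars, lower), with dashed and dotted lines for all autosomal protein-coding genes (4.04% and 5.97%). Ribosomal proteins and nuclear transport genes have the longest dark bars, and chemoreceptors, lectins, neuropeptides and detoxification enzymes lie near 0.

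TGCGTCTC and the GA repeat were more frequent at single-promoter peaks than at promoters in general, and less frequent than at peaks outside promoters. On either strand, TGCGTCTC lay within 100 bp of 120 summits (16.9%, 95% Wilson interval 14.3 to 19.9%) and GAGAGAGA of 71 (10.01%, 8.02 to 12.4%). In windows of the same length centred 222 bp upstream of every autosomal protein-coding start, the shares were 2.25% and 2.04%. At peaks of 2 promoters they were 8.40% and 4.01%, in introns 20.4% for both, and in distal intergenic sequence 27.8% and 28.1%. Single-promoter peaks thus stood between peaks at 2 promoters and peaks outside promoters for both sequences. In replicate 1's own list the single-promoter shares were 16.3% and 9.38%, and in replicate 2's 15.6% and 9.53%, with the same order of classes. TATAAA and TTTTTTTT, counted in the same way, went the other way. They lay at 16.1% and 14.5% of members, against 24.6% and 24.0% of the windows of all promoters. Their shares were 14.9% and 17.6% at peaks of 2 promoters, 8.08% and 6.92% in introns and 7.12% and 10.8% in distal intergenic sequence. The promoter windows were not matched for base composition. The differences between classes were not tested.

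Neither sequence went with a higher signal. Members with TGCGTCTC had a median of 205.2, as had those without it, and members with the GA repeat had 194.0 against 206.3. TGCGTCTC stood on the strand of the gene in 65 members, on the other strand in 53 and on both in 2, and 53 of the 120 had it centred within 25 bp of the summit. The strongest members with it were cnk-1, the scaffold gene of Ras signalling (1104), ntl-11 and C34C12.8 (901.1), and with the GA repeat hsp-1, K12H4.5 (743.8) and the ESCRT gene vps-60 (678.0). By distance from the start the share with the GA repeat was 18.03% beyond 500 bp upstream and 5.93% at 100 to 250 bp. It was 7.89% from 250 to 500 bp upstream, 12.5% within 100 bp upstream and 17.1% from 100 bp downstream onward, so it followed no single direction with distance. Within tandem members it was 3.23%, 4.59%, 15.5%, 19.6% and 7.69% for gaps under 500, under 1000, under 2000, under 4000 and from 4000 bp, of which the last rests on 26 peaks.

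Another 4 words of 8 letters were about as frequent at single-promoter peaks as at peaks of 2 promoters. They were chosen on these data, in part for being less frequent outside promoters. All 8-letter words were ranked by how far their share at the members exceeded that at all promoters, and from the first 40, words at least 2 times as frequent as outside promoters were kept, leaving out overlapping ones, until 4 stood. AAACGCGC was found within 100 bp of 73 member summits (10.3%), GCAAACAC of 76 (10.7%), AAGTGCGC of 49 (6.91%) and GCGCTCCA of 46 (6.49%). Their shares in the windows of all promoters were 1.15%, 1.76%, 0.916% and 1.06%. At least 1 of the 4 lay at 211 members (29.8%, 95% Wilson interval 26.5 to 33.2%), at 31.5% of peaks of 2 promoters (27.7 to 35.6%), which played no part in the choice, and at 4.40% of all promoters. In introns and distal intergenic sequence the shares were 8.85% and 10.8%, which the choice itself kept low. The excess of the members over all promoters was likewise set by the choice. The single-promoter share was 29.6% in replicate 1's own list and 30.3% in replicate 2's. Since 522 of the 709 members overlapped both lists, these shares are no separate check.

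Some members carried both kinds of sequence. Of the 168 members with TGCGTCTC or the GA repeat, 37 (22.02%) also had 1 of the 4 words, against 32.2% of the other members. In all, 367 members (51.8%) had neither kind, and rpl-3, with the highest signal, was among them. Signal was only slightly higher with the 4 words, with a median of 222.3 against 196.6 without (replicate 1 own list 154.9 against 145.7, replicate 2 98.8 against 89.4). Word by word it was 250.3 with AAGTGCGC against 197.99 without, 220.8 against 203.5 for AAACGCGC, 206.8 against 205.1 for GCAAACAC and 169.96 against 206.4 for GCGCTCCA, so the words did not move one way. A match of letters is a description and was not tied to a protein here.

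The E2F-like sequence GCGCGAAA was rare, and members with it had a higher median signal than the others. It was within 100 bp of 28 members (3.95%, 95% Wilson interval 2.75 to 5.65%), 4.58% of peaks at 2 promoters and 0.870% of all promoters. The 28 had a median signal of 340.7 (95% interval of the median 224.0 to 456.7), against 199.4 for the other members (185.8 to 216.1), and 27 of them overlapped both replicates' own lists. Their signals ranged from 108.3 to 984.4, and by quartile of signal, weakest first, they numbered 3, 2, 9 and 14. pcn-1 had 625.8 in replicate 1 and 355.1 in replicate 2, lin-9 had 592.3 and 348.3, and fbxl-2 521.1 and 333.7. Of the 13 members in the replication and cell cycle list 4 carried it, namely pcn-1, bir-1 (224.0), the polymerase epsilon gene pole-1 (223.9) and mcm-4. It also lay at members of other groups, such as the splicing gene snr-4 (737.4), vps-39, mrpl-28 and tba-2. In introns the share with GCGCGAAA was 2.31% (1.06 to 4.94%) and in distal intergenic sequence 3.05% (1.61 to 5.70%). GGGCGG was likewise about as common at 1 promoter as at 2 (10.3% for both). It lay at 11.2% of intronic peaks, 10.8% of distal intergenic peaks and 4.40% of all promoters.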

How the data were processed

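Peak lists on ce11 were used as deposited. Lists ranked and thresholded by the irreproducible discovery rate exist for each replicate, and a thresholded and a conservative one for the series, per the deposited notes. The signal deposited with each peak is the authors' enrichment value. The sources used here do not give the aligner, the peak caller or the control. A further 16 per-sample columns of the series' ranked lists were not used. Peak lists carry no counts, so each sample's depth is unknown and counting error is not covered.

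Summits were assigned to Ensembl release 115 gene models (WBcel235) in Python 3.11.15 with numpy 2.4.6, pandas 2.3.3 and scipy 1.17.1. The assignment was checked on peaks placed at known distances. Overlap needed 1 bp, and the highest overlapping peak gave a replicate's signal. Wilson intervals are at 95% and, like intervals of medians, cover only the number of peaks or genes. No test was made, because there is 1 condition with 2 replicates. Upstream neighbours were the nearest protein-coding gene on the upstream side of the start or spanning it.

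Members, gene lists and short sequences were chosen with earlier results of these data known. Genes named are those of highest signal among all members, per list, orientation, distance group and sequence, those in neither replicate, with most peaks, at the window's edges, and with extreme gaps. A few others are named as examples after their values were seen.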

Additional observations from a re-analysis of the deposited data

How the results depend on the processing

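Of 90 values, recomputed for 10 results under 9 alternatives, 71 stayed within the main interval or within 1.5 times the count, and 19 moved. Narrowing the window to 500 bp upstream and 250 bp downstream gave a median distance of 182 bp upstream (-182), 45.6% divergent neighbours and GAGAGAGA at 7.01%. Widening it to 1500 bp upstream gave -262 bp, 32.3% and 13.1%. Counting starts of every biotype but piRNA gave -184 bp, 89.6% upstream, 28.2% divergent and a ratio of median signal at 1 promoter over 2 promoters of 0.896, against 0.825. Starts of any transcript raised the single-promoter share to 42.05%. The 1071 peaks of higher signal held 383 members, with 95.3% upstream, a median signal of 314.3 and 99.2% in both replicates. With each replicate left out in turn, the median signal was 88.8 to 136.9, on the other replicate's own scale, and the share overlapping both 76.8 to 90.1%. No pairing applies, since all samples form 1 group. No paired analysis was possible because there is no second group to compare.

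The lists carry no read counts and no values in untagged animals, so counting error and the background at these promoters are unknown. Gene starts are those of the annotation.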

Other observations

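Single-promoter peaks made up 38.4% of the autosomal peaks, against 130 of 295 peaks (44.1%) on the X chromosome, which the rule left out. Peaks at 2 promoters were 28.4% of the autosomal peaks, against 14 peaks (4.75%) on X. The single-promoter peaks had medians of signal from 193.7 on chromosome II to 223.2 on V, against 180.1 on X. Genes with such a peak were 2.24% of the protein-coding genes of chromosome V and 5.76% of those of III, the lowest and highest autosomal shares, against 4.72% on X. These values were not tested.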
